A study of Mus musculus with 24 samples.

Results

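The genes described here encode the coat of the lipid droplet and the enzymes that build triglyceride and break it down again. They are 10 genes of 18820 measured, chosen by name: Plin2, Gpam, Agpat2, Lpin1, Dgat1, Dgat2, Pnpla2, G0s2, Lipe and Mgll. The choice was made with earlier results of these data known. Shares of all genes stand beside their counts as a description and do not test them as a set. All 10 were measured. Each was read from a probe set paired with that gene alone, and of 2 such probe sets for Lipe the brighter was used. The samples were left ventricles of male mice of the strain labelled BL6C57, wildtype or without Per2, a repressor of the circadian clock. There were 8 groups of 3 hearts, 1 heart per array, and the mice were 12 to 16 weeks old according to the methods. Sham-operated hearts, labelled as untreated, served as controls. Hearts labelled I30 were harvested after an ischemia of 30 min, and those labelled I30R60 after the same ischemia and 60 min of restored flow. Hearts labelled IP0 underwent ischemic preconditioning, in which ischemia for 5 min and restored flow for 5 min alternated over 4 cycles, and were taken without a further delay. Both genotypes went through all 4 conditions under anesthesia, and the Per2-/- line is a knockout of the whole animal. Values are log2 intensities, so that a difference of 1 is a doubling, and intensities of different probe sets were not set against each other.

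A heart muscle cell takes up more fatty acid than it can burn at once and stores the rest as triglyceride in lipid droplets. Triglyceride is assembled by adding acyl chains to glycerol-3-phosphate, in an order of steps that begins with Gpam and ends with Dgat1 and Dgat2. It is taken apart one chain at a time by Pnpla2, Lipe and Mgll. Plin2 coats the droplet and shields it from lipases, and in the heart it is known as a gene that fatty acids induce through the nuclear receptor PPAR alpha.

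The promoters are shown because Per2 acts on a clock whose activators bind the E-box CACGTG. RefSeq promoters of GRCm38.p6, 250 bases before to 50 after a start, were given for 8 of the 10 genes, 11 promoters in all. The E-box, which reads the same on both strands, was found in 3 of these 11, those of Plin2, Mgll and Lipe, and in 7.15% of 32851 promoters. A direct repeat of the PPAR type, 2 copies of AGGNCA with 1 base between them, was searched on both strands and was found in 0 of the 11 and in 0.381% of all promoters. A match of letters is a description and not a binding site. The windows below run from 250 bases before the start to 30 after it, 5′ to 3′ on the strand of the gene, with the E-box in capitals. They are Plin2 (chr4:86670030-86670309, minus strand), Mgll (chr6:88724162-88724441, plus strand), Lipe (chr7:25395958-25396237, minus strand) and, for a gene that fell with Plin2 and holds no E-box there, Agpat2 (chr2:26604388-26604667, minus strand).
Plin2: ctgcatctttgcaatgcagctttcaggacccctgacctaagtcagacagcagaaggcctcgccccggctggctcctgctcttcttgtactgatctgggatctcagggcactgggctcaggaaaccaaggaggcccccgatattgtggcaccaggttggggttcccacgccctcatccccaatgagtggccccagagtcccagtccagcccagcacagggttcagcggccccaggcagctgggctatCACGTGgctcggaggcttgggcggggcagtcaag
Mgll: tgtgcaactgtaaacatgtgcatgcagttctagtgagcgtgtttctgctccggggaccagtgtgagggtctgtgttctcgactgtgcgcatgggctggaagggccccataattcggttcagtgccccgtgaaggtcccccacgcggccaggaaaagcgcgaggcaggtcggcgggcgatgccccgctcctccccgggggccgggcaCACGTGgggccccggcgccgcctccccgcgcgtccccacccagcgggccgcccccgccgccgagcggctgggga
Lipe: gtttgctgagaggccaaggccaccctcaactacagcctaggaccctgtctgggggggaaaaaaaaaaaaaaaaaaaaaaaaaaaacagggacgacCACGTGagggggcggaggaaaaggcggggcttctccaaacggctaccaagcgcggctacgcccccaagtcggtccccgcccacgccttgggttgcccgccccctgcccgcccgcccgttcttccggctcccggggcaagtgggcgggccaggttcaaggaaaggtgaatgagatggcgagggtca
Agpat2: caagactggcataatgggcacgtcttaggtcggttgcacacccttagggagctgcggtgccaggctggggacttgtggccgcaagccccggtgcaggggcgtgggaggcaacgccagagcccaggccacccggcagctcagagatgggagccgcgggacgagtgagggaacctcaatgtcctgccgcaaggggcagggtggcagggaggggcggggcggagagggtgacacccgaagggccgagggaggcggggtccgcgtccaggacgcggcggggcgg
The first base of the E-box lay at -4 from the start in Plin2, -44 in Mgll and -155 in Lipe. Mgll and Lipe each have another listed promoter, and these held no E-box.

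In wildtype hearts 4 of the 10 genes passed the test as lower after ischemia and none as higher. They were the droplet coat gene Plin2, the synthesis genes Agpat2 and Gpam, and the lipase gene Mgll. In Per2-/- hearts none of the 10 passed the test in any treatment against sham, where 0% of all genes were called in I30, 0.159% in IP0 and 4.79% in I30R60. With no gene of 18820 called in Per2-/- I30 hearts, the count of none there is not particular to these genes. Plin2 was the only one of the 10 that also passed the test, as lower, with preconditioning in wildtype hearts. It was likewise the only one that passed it between the sham hearts of the genotypes. Differences were tested with limma over all 24 arrays, with Benjamini-Hochberg adjustment over all 18820 genes, and called at an adjusted p under 0.05. Over all genes 2.39% were called in wildtype I30 against sham, 1.18% as lower. The 10 genes had a median difference of -0.30 there, with 9 of 10 below 0, beside a median of 0.01 over all genes. The count of 4 was 1 after quantile normalization of the arrays, 1 to 2 without any one of the 6 arrays, and 0 in a fit of these 6 arrays alone or without the 4 arrays that stood high for the atrial marker Myl7. Over all genes the calls went from 449 to 104, 9 and 3 under quantile normalization, in the 6 arrays alone and without the Myl7 arrays. The 3 comparisons of wildtype treatments with sham, and that of the sham hearts, share the 3 wildtype sham arrays and are not independent.

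**Figure D1:**
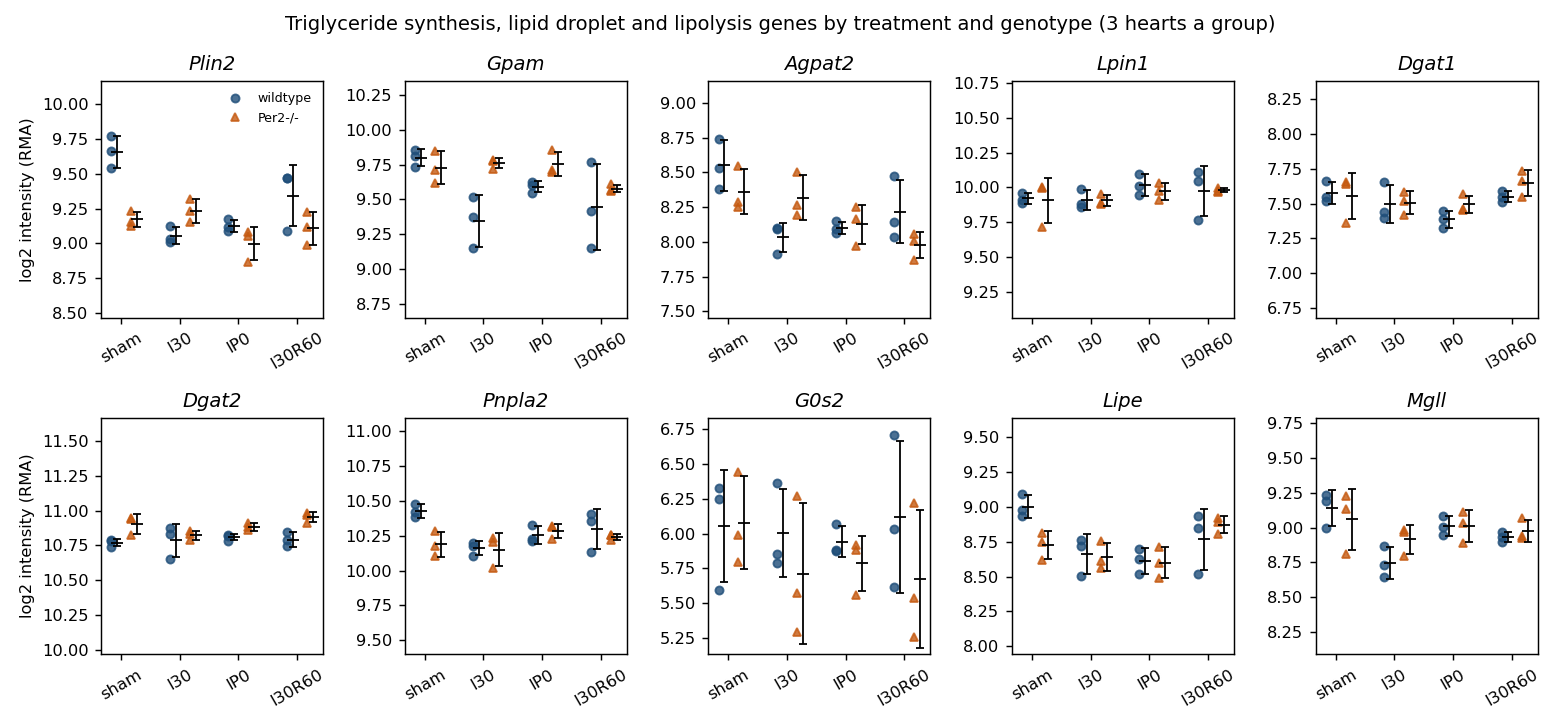
Log2 intensity (vertical axis, of the same length in every panel) of the 10 genes in 4 conditions. Circles are wildtype and triangles Per2-/- hearts, 3 per group, with the mean and SD in black. The 3 wildtype sham hearts lie above all other hearts for Plin2, between 9.54 and 9.77, while Lpin1 and Dgat2 stay within 0.39 and 0.33 over all 24 hearts.

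Several features of the arrays moved with wildtype ischemia. The interquartile range of all values was 3.76 to 3.87 on the wildtype I30 arrays and 4.01 to 4.11 on the wildtype sham arrays. The mean of 5 lung epithelium markers was 3.67 to 5.11 in wildtype I30 and 2.73 to 2.83 in wildtype sham hearts. The mean of 4 endothelial markers was 8.95 to 9.09 against 9.21 to 9.39, and that of 4 ventricular muscle markers 12.61 to 12.75 against 12.74 to 12.78, with overlap. The mean of 6 neutrophil markers was 4.20 to 5.55 against 4.10 to 4.22, with overlap. The atrial marker Myl7 stood high in 4 arrays, wildtype sham replicates 1 and 2, Per2-/- sham replicate 3 and Per2-/- IP0 replicate 3, so that without them wildtype sham is left with 1 array. The mean of 4 atrial markers was 6.05 to 8.52 in wildtype sham hearts. It was 5.73 to 5.88 in wildtype I30, 5.52 to 5.70 in wildtype IP0 and 5.70 to 5.97 in wildtype I30R60 hearts. The part of these features in the differences below was not tested. In bulk tissue, fewer cells of a type and less RNA per cell cannot be told apart. The Per2 probe set gave 5.33, 5.94 and 6.10 in wildtype sham and 5.69, 5.65 and 5.63 in Per2-/- sham hearts, and therefore does not check the genotype labels.

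Plin2 read 9.77, 9.66 and 9.54 in wildtype sham hearts. It read 9.03, 9.13 and 9.01 after ischemia, 9.12, 9.09 and 9.17 after preconditioning, and 9.47, 9.47 and 9.09 after ischemia and reperfusion. In Per2-/- hearts it read 9.16, 9.13 and 9.23 in sham, 9.23, 9.32 and 9.15 in I30, 9.08, 9.05 and 8.86 in IP0, and 9.22, 8.99 and 9.12 in I30R60. Wildtype sham overlapped no other group, and each of the other 7 groups overlapped its neighbour in the order of means. The wildtype difference between I30 and sham was -0.60 (SE 0.10, adjusted p = 0.00785), a fall of the linear intensity to 0.659 of sham. Plin2 stayed called without each of the 6 arrays in turn (adjusted p from 0.0113 to 0.0488) and after quantile normalization (-0.58, adjusted p = 0.012). Without the 4 arrays with high Myl7 the difference was -0.49 and the adjusted p 0.301, with the lone sham array assumed to vary like the other groups. That array, replicate 3, was the lowest of the 3 sham arrays and lay above every array of the other groups. The part of atrial tissue in the difference was not tested.

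The synthesis genes divided into an early pair that moved and later steps that did not pass the test. Agpat2, which adds the second acyl chain, read 8.74, 8.38 and 8.53 in wildtype sham and 7.91, 8.09 and 8.10 in wildtype I30 hearts. The groups did not overlap, and the difference was -0.52 (SE 0.12, adjusted p = 0.0328). Gpam, the mitochondrial enzyme that adds the first chain, read 9.73, 9.81 and 9.85 in wildtype sham and 9.51, 9.37 and 9.15 in wildtype I30 hearts, again without overlap. Its difference was -0.46 (SE 0.12, adjusted p = 0.0424).

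These calls were less steady than that of Plin2. Agpat2 remained called without wildtype sham replicate 2 or wildtype I30 replicate 2 and lost the call without any of the other 4 arrays (adjusted p up to 0.157). Gpam remained called only without I30 replicate 1, and without the others the adjusted p reached 0.131. After quantile normalization, which sets the spread of all arrays equal, the values were -0.48 (adjusted p = 0.0793) for Agpat2 and -0.43 (adjusted p = 0.0937) for Gpam.

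Lpin1, the phosphatase that removes phosphate to give diacylglycerol, ranged from 9.72 to 10.11 over the 24 hearts, and its largest difference from sham in any treatment and genotype was 0.10 (SE 0.09), in wildtype IP0. Dgat1 and Dgat2 both add the third chain. Dgat1 differed by -0.08 (95% interval -0.27 to 0.11) and Dgat2 by 0.02 (-0.12 to 0.16) in wildtype I30. In wildtype IP0 the Dgat1 arrays at 7.39, 7.45 and 7.33 lay below those of sham at 7.55, 7.67 and 7.52, with a difference of -0.19 and an adjusted p of 0.394.

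The lipases lay lower in wildtype I30 than in sham, with Mgll past the threshold. Mgll, which hydrolyses monoglyceride in the last step, read 9.23, 9.19 and 8.99 in wildtype sham and 8.87, 8.64 and 8.73 in wildtype I30 hearts. The groups did not overlap, and the difference was -0.39 (SE 0.10, adjusted p = 0.0475). The call was lost without any one of the 6 arrays, with an adjusted p from 0.0526 to 0.187 and a difference that stayed between -0.46 and -0.34, and after quantile normalization (adjusted p = 0.111).

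Pnpla2, the triglyceride lipase that takes the first chain, read 10.38, 10.48 and 10.42 in sham and 10.18, 10.20 and 10.10 in I30 wildtype hearts. The groups did not overlap, and the difference of -0.27 (SE 0.08) had an adjusted p of 0.0786. Lipe, the hormone-sensitive lipase that acts mainly on diacylglycerol, read 8.93, 9.09 and 8.98 in sham and 8.77, 8.72 and 8.50 in I30. These groups did not overlap either, and the difference of -0.34 (SE 0.10) had an adjusted p of 0.0833. The other probe set of Lipe read 6.28, 6.57 and 6.34 in sham and 6.27, 6.39 and 6.22 in I30, which do overlap. In all, 6 of the 10 genes had every I30 array below every sham array, beside 12.8% of all genes.

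G0s2 encodes an inhibitor of Pnpla2. It ranged from 5.26 to 6.71 and had the largest SD within groups of the 10 genes, 0.391 beside 0.0568 to 0.15 for the others. All neighbours in the order of its group means overlapped. Its wildtype I30 difference of -0.05 had a 95% interval from -0.66 to 0.56, so these arrays do not say whether it changed within that range.

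**Figure D2:**
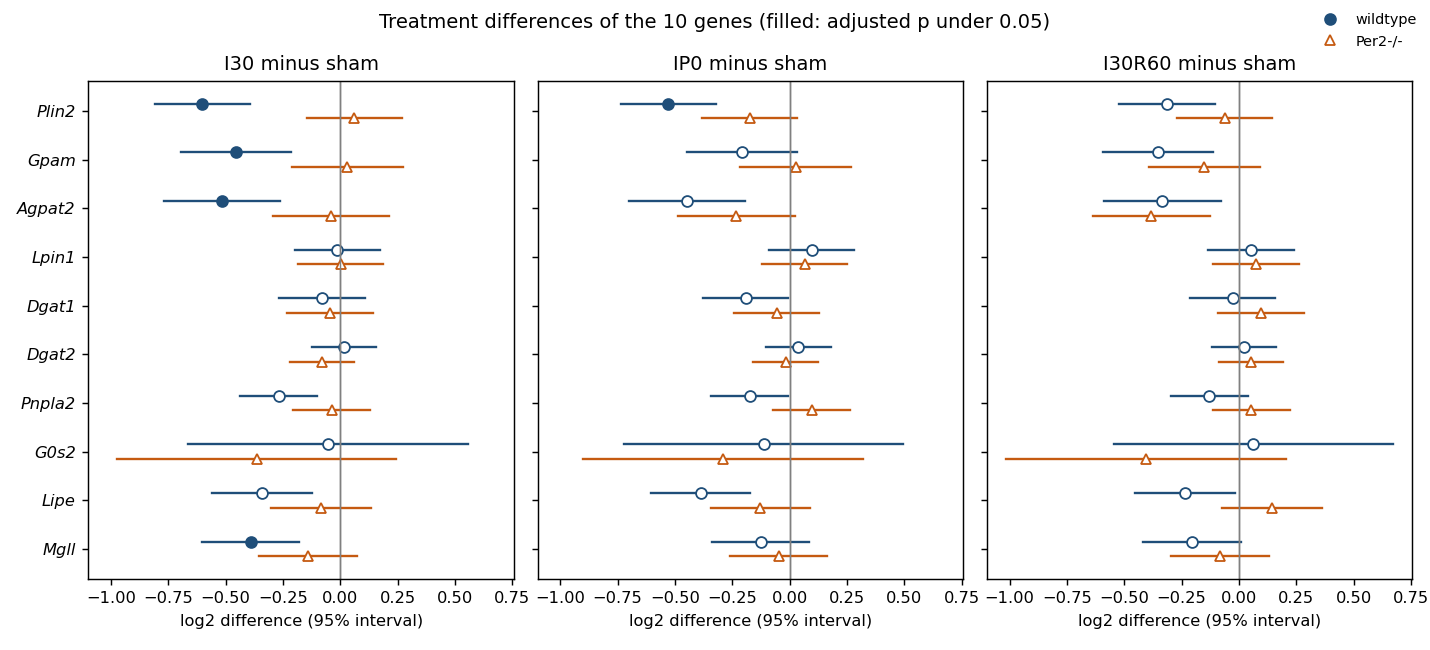
Difference of each treatment from the sham hearts of the same genotype (horizontal axis, log2 units), with 95% intervals from limma. Circles are wildtype and triangles Per2-/-, 3 hearts against 3, and filled symbols have an adjusted p under 0.05. Filled symbols are Plin2, Gpam, Agpat2 and Mgll in wildtype I30 and Plin2 in wildtype IP0.

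After preconditioning in wildtype hearts Plin2 was lower than sham by -0.53 (SE 0.10, adjusted p = 0.0124), where 0.85% of all genes were called and 0.329% were called lower. The call was lost without wildtype sham replicate 1 (adjusted p = 0.081) or wildtype IP0 replicate 2 (adjusted p = 0.0701). The mean of 4 fibroblast markers was 8.21 to 8.29 in wildtype IP0 and 8.35 to 8.54 in wildtype sham hearts, and its part in the difference was not tested. Agpat2 at 8.06, 8.09 and 8.15 lay below all sham arrays, with a difference of -0.45 and an adjusted p of 0.0958. Lipe at 8.70, 8.52 and 8.63 did too, with -0.39 and 0.0897. The other probe set of Lipe overlapped, at 6.22 to 6.42 in IP0 and 6.28 to 6.57 in sham. In all, 6 of the 10 genes had every IP0 array below every sham array, beside 9.73% of all genes, and they were those of I30 with Dgat1 in place of Mgll. In Per2-/- IP0 hearts, where 0.159% of all genes were called, none of the 10 was, and Plin2 differed from sham by -0.17 (95% interval -0.38 to 0.03) and Agpat2 by -0.23 (-0.49 to 0.02). These 2 of the 10 genes had every Per2-/- IP0 array below every Per2-/- sham array, beside 8.13% of all genes.

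Averaged over the genotypes, preconditioning lowered 2 of the 10 genes, beside 1.94% of all genes called and 0.925% called lower. Plin2 fell by 0.35 on the log2 scale (SE 0.07, adjusted p = 0.0115) and stayed called without each of the 12 arrays. Agpat2 fell by 0.34 (SE 0.09, adjusted p = 0.044) and kept the call without 2 of the 12 arrays, wildtype sham replicate 2 and Per2-/- sham replicate 1. Without the 4 arrays with high Myl7 neither was called (adjusted p = 0.385 and 0.451). For ischemia averaged over the genotypes all 10 genes lay below 0, with a median of -0.21, and none was called, beside 1.61% of all genes. The adjusted p was 0.0562 for Plin2 and 0.0641 for Mgll.

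After 60 minutes of reperfusion none of the 10 genes was called against sham in wildtype hearts, where 2.47% of all genes were, or in Per2-/- hearts, where 4.79% were. Averaged over the genotypes Agpat2 was lower than sham, with -0.36 (SE 0.09, adjusted p = 0.0104). It was the 1 gene of the 10 called there, beside 9.34% of all genes called and 5.05% called lower. A count of 1 is near that share and is not particular to these genes. Its wildtype arrays at 8.14, 8.47 and 8.04 overlapped those of sham, and its Per2-/- arrays at 8.05, 7.87 and 8.01 lay below Per2-/- sham at 8.25, 8.28 and 8.55. Gpam did so too, so that 2 of the 10 genes lay wholly below sham there, beside 14.7% of all genes. In wildtype hearts Plin2 and Mgll, 2 of the 10, lay wholly below sham after reperfusion, beside 10.9% of all genes. Of the 10 genes 7 lay below 0 in that wildtype comparison, with a median of -0.17. The neutrophil marker mean was 4.69 to 5.95 in wildtype I30R60 against 4.10 to 4.22 in wildtype sham hearts. In Per2-/- hearts it was 5.05 to 5.81 against 3.47 to 3.90, and its part in these differences was not tested. The averaged call held without each of the 12 arrays (adjusted p from 0.00252 to 0.0371) and was lost without the 4 arrays with high Myl7 (-0.30, adjusted p = 0.113).

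Set against I30 of the same genotype, reperfusion left all 10 genes above 0 in wildtype hearts, with a median of 0.11, and none was called, beside 5.49% of all genes. Plin2 had the largest of these differences, 0.29 (SE 0.10, adjusted p = 0.094), with replicate 3 at 9.09 inside the range of I30 and the other 2 arrays at 9.47 above it. In Per2-/- hearts none was called, beside 5.4% of all genes. Agpat2 and Gpam, 2 of the 10, lay wholly below I30 there, beside 13% of all genes, and Lipe, Dgat2 and Lpin1, 3 of the 10, wholly above, beside 10.8%. The largest of these differences was that of Agpat2, at -0.34 (adjusted p = 0.114), and next that of Lipe, at 0.23 (adjusted p = 0.238). The other probe set of Lipe overlapped, at 5.95 to 6.37 in Per2-/- I30R60 and 5.91 to 6.29 in Per2-/- I30.

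In sham hearts Plin2 was lower in Per2-/- than in wildtype by 0.48 log2 units, where 0.266% of all genes were called and 0.122% were called lower. The Per2-/- arrays at 9.16, 9.13 and 9.23 lay below the wildtype arrays at 9.54 to 9.77, and the difference was -0.48 (SE 0.10, adjusted p = 0.0408). The call was lost without any one of the 6 arrays (adjusted p from 0.0608 to 0.196) and the value then ranged from -0.54 to -0.43. The neutrophil marker mean was 3.47 to 3.90 in Per2-/- and 4.10 to 4.22 in wildtype sham, and the lung epithelium mean 2.90 to 3.36 and 2.73 to 2.83, and their part in the difference was not tested. Pnpla2 in Per2-/- sham at 10.18, 10.28 and 10.11 also lay below wildtype sham, with a difference of -0.24 and an adjusted p of 0.394. Lipe at 8.81, 8.75 and 8.62 did so with -0.27 and 0.512. The other probe set of Lipe overlapped, at 6.29 to 6.51 in Per2-/- and 6.28 to 6.57 in wildtype sham hearts. Every Per2-/- array lay below every wildtype array for these 3 of the 10 genes, beside 5.96% of all genes.

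**Figure D3:**
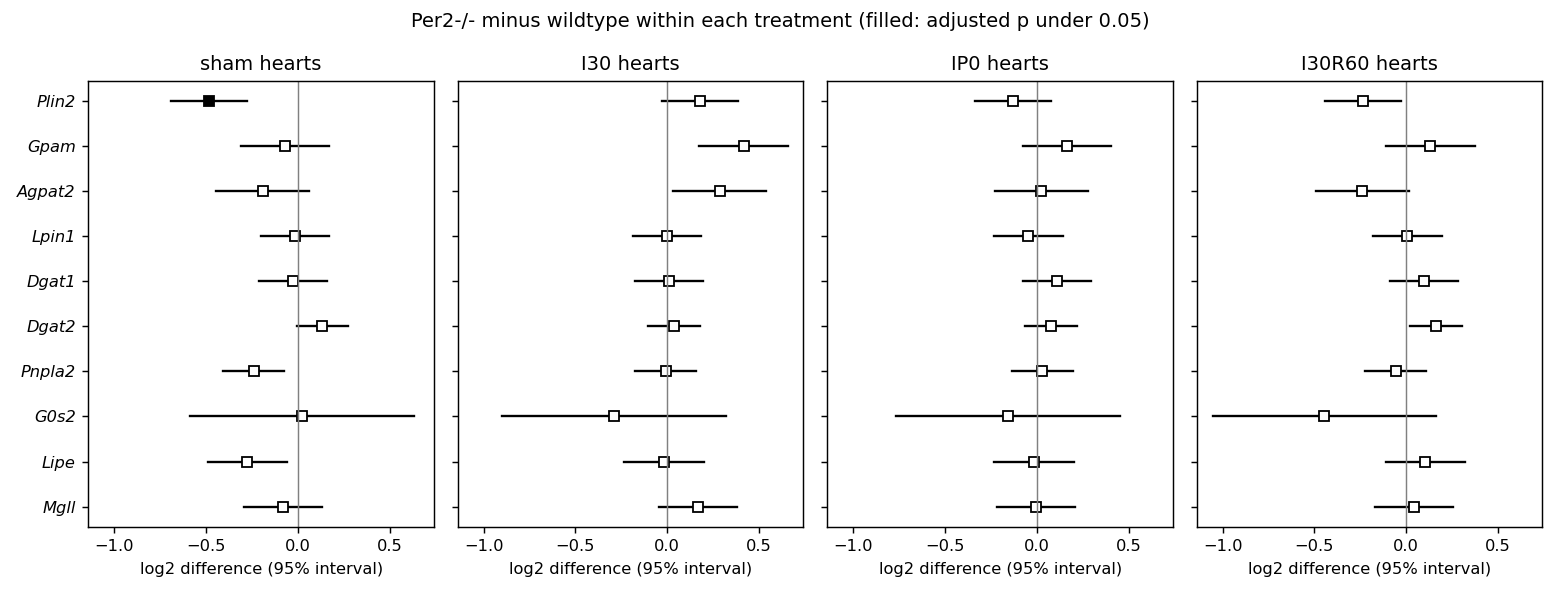
Difference of Per2-/- from wildtype hearts within each condition (horizontal axis, log2 units), with 95% intervals from limma, 3 hearts against 3. A filled square has an adjusted p under 0.05, which Plin2 in sham hearts alone reached, at -0.48, and Plin2 in I30 hearts lies on the other side of 0, at 0.18.

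Within the other conditions none of the 10 genes was called between the genotypes. The shares of all genes called were 0.664% in I30, 0.0797% in IP0 and 0.175% in I30R60. In I30 hearts Gpam at 9.72, 9.78 and 9.78 in Per2-/- lay above wildtype at 9.51, 9.37 and 9.15, with a difference of 0.42 (SE 0.12, adjusted p = 0.118). Plin2 and Agpat2 also lay wholly above wildtype, by 0.18 (adjusted p = 0.491) and 0.29 (adjusted p = 0.335). Every Per2-/- array lay above every wildtype array for 3 of the 10 genes, beside 8.21% of all genes. In IP0 hearts Gpam, Dgat1 and Dgat2, 3 of the 10, lay wholly above wildtype, beside 5.91% of all genes. Plin2 alone lay wholly below it there, beside 5.59%. Averaged over the 4 conditions, none of the 10 was called, beside 1.88% of all genes, and Plin2 differed by -0.17 (SE 0.05, adjusted p = 0.103) and Dgat2 by 0.10 (SE 0.03, adjusted p = 0.146).

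Whether the response to a treatment differed between the genotypes was tested as an interaction. Limma called 0 of 18820 genes in each of the 3 interactions, 0%, while 1336 genes had an unadjusted p under 0.05 for I30, 905 for IP0 and 1034 for I30R60. In wildtype hearts Plin2 differed from sham by -0.60 after ischemia and in Per2-/- hearts by 0.06 (95% interval -0.15 to 0.27). The difference of the responses was 0.66 (SE 0.14, 95% interval 0.37 to 0.96, adjusted p = 0.371), and 3 of the 10 genes had an unadjusted p under 0.05. For Gpam it was 0.49 (adjusted p = 0.531) and for Agpat2 0.48 (adjusted p = 0.561), and 8 of the 10 genes lay above 0. The groups of this test include the wildtype sham hearts, which stood highest for all 3 genes. A difference between the genotypes in the response of these genes is thus not shown after adjustment. In Per2-/- I30 hearts against Per2-/- sham, limma called 0 of 18820 genes, 0%, while 1343 had an unadjusted p under 0.05. A Student's t-test per gene, with the same adjustment, also called 0. The methods name that test for the data in general and do not say which tests the arrays were given. It is called the methods' t-test below.

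The order of the groups differed between the genes. Wildtype sham had the highest mean for Plin2, Agpat2, Gpam, Mgll, Pnpla2 and Lipe, and it overlapped the next group in all of them but Plin2 and Lipe. The lowest mean lay in wildtype I30 for Gpam and Mgll, in Per2-/- IP0 for Plin2 and Lipe, in Per2-/- I30R60 for Agpat2 and in Per2-/- I30 for Pnpla2, and each overlapped the group above it. Dgat2 went the other way, with the 4 Per2-/- groups in the highest 4 places and wildtype sham last. Its 8 means spanned only 0.19 log2 units. Its Per2-/- groups lay wholly above wildtype in sham, IP0 and I30R60, as did 8.35%, 5.91% and 5.8% of all genes.

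Over the 24 arrays the pattern most like that of Plin2 was that of Ucp3, a mitochondrial uncoupling protein gene known as a target of PPAR alpha in muscle, with r = 0.90, and next that of Hsd17b11, a gene of a lipid droplet dehydrogenase, with r = 0.86. Among the 10 genes Plin2 was most like Agpat2, with r = 0.77, and Pnpla2 most like Lipe, with r = 0.68. Agpat2 was itself most like the mitochondrial carrier gene Slc25a22 (r = 0.85) and Ucp3 (r = 0.80). Pnpla2 was most like Pdk4, the kinase that turns off pyruvate dehydrogenase, with r = 0.82. For the others the most like gene was Cdk18 for Gpam, Serpinb6a for Mgll, Ccl6 for Lipe, Mustn1 for Dgat1, Aldh1a1 for Dgat2, Ppfibp1 for Lpin1 and Zbtb8a for G0s2, with r from 0.72 to 0.82. Each is the highest of all genes and is given as a description. The arrays share the group differences and the array features given above.

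Of the wider pathway, 38 of 46 listed genes were measured: 12 of droplet coat and assembly, 14 of glycerolipid synthesis and 12 of lipolysis. In wildtype I30 hearts 4 of the 38 were lower and 1 was higher than sham, beside 1.18% of all genes lower and 2.39% called in either direction. Their median difference was -0.05, beside 0.01 over all genes. Hsd17b11 read 9.16, 9.10 and 9.29 in wildtype sham and 8.57, 8.48 and 8.27 in wildtype I30, a difference of -0.74 (SE 0.12, adjusted p = 0.0069). Cidea, which enlarges droplets by fusion, differed by -0.49 (SE 0.11, adjusted p = 0.0277), and its groups did not overlap, at 7.44 to 7.72 and 6.91 to 7.37.

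The synthesis genes Gpat3 and Agpat5, acyltransferases of the same steps as Gpam and Agpat2, differed by -0.47 (adjusted p = 0.0228) and -0.42 (adjusted p = 0.0423). The other measured Gpat and Agpat genes of the list were not called. Of the 14 synthesis genes 8 lay above 0 and 6 below, with a median of 0.06. Pnpla3, a relative of Pnpla2, was higher by 0.71 (SE 0.18, adjusted p = 0.041), from a sham mean of 4.27 that lies under 4.44, the median of all values. After quantile normalization 1 of the 38 was called. Of the other perilipins above the median of all values, none was called. Plin3 differed by 0.04 (95% interval -0.22 to 0.31), Plin4 by 0.21 (-0.07 to 0.50) and Plin5, the perilipin of oxidative muscle, by 0.14 (-0.17 to 0.46). In Per2-/- I30 hearts 0 of the 38 were called, as were 0% of all genes.

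**Figure D4:**
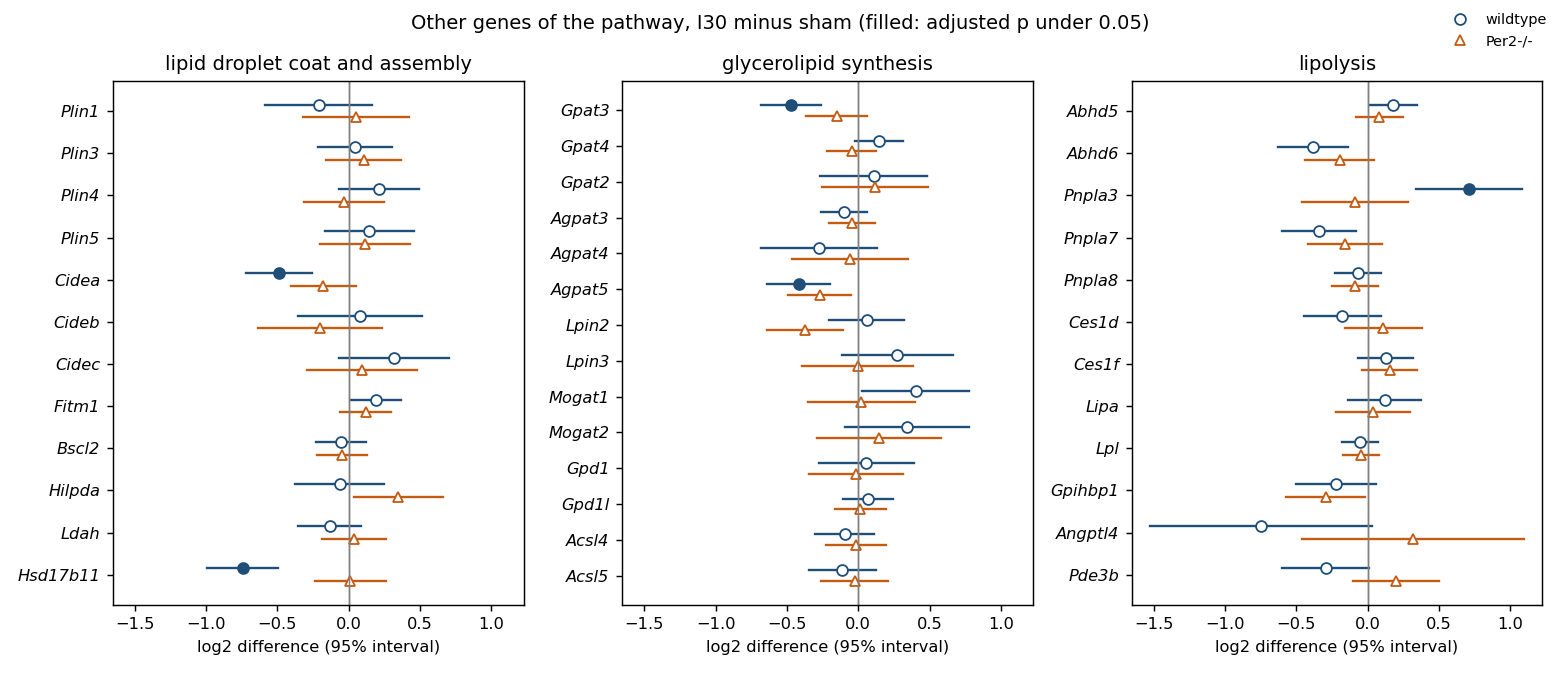
Difference of I30 from sham hearts (horizontal axis, log2 units) for 38 other genes of the pathway in 3 groups, with 95% intervals from limma. Circles are wildtype and triangles Per2-/-, and filled symbols have an adjusted p under 0.05. Filled circles are Hsd17b11, Cidea, Gpat3 and Agpat5 to the left and Pnpla3 to the right, and no triangle is filled.

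Hsd17b11 was called wherever Plin2 was and in further comparisons. It was lower than sham in wildtype IP0 (-0.66, adjusted p = 0.00983) and wildtype I30R60 (-0.54, adjusted p = 0.0145), and lower in Per2-/- than in wildtype sham hearts (-0.63, adjusted p = 0.0217). It was the 1 gene of the 38 called in each of these, beside 0.85%, 2.47% and 0.266% of all genes. These comparisons and that of wildtype I30 share the wildtype sham arrays and are not independent. In Per2-/- hearts it read 8.57, 8.58 and 8.50 in sham and 8.44, 8.75 and 8.49 in I30, which overlap. The difference between the responses of the genotypes to ischemia was 0.75 (SE 0.17, adjusted p = 0.371). Averaged over the 4 conditions it was lower in Per2-/- (-0.23, adjusted p = 0.0492), as was Angptl4, a secreted inhibitor of lipoprotein lipase (-0.80, SE 0.19, adjusted p = 0.027). These were the 2 of the 38 called there, beside 1.88% of all genes. The difference was not the same in each condition. In I30 hearts the Hsd17b11 mean was 8.56 in Per2-/- and 8.44 in wildtype. The Angptl4 mean was 6.04 and 6.09 in I30, beside 5.72 and 6.84 in sham hearts. In IP0 and I30R60 the Per2-/- mean was the lower for both genes. Angptl4 varied widely within groups, from 5.26 to 6.88 among the wildtype I30 hearts alone.

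Reperfusion against ischemia alone, averaged over the genotypes, raised 4 and lowered 1 of the 38 genes, 5 in all, beside 12.3% of all genes called. This count is near the share of all genes and is not particular to the pathway. The acyltransferase gene Agpat4 rose by 0.69 (adjusted p = 0.00267), the phosphatase gene Lpin2 by 0.35 (adjusted p = 0.0145), the acyl-CoA synthetase gene Acsl5 by 0.26 (adjusted p = 0.035) and Gpat3 by 0.23 (adjusted p = 0.0398), and Pnpla3 fell by 0.49 (adjusted p = 0.0136). Pde3b, which breaks down cyclic AMP and so restrains lipolysis, rose with reperfusion in wildtype hearts by 0.61 (adjusted p = 0.0182). In that comparison 3 of the 38 were called, beside 5.49% of all genes. Agpat4 was also higher than sham in Per2-/- I30R60 hearts, by 0.69 (adjusted p = 0.0483). It was the 1 gene of the 38 called there, beside 4.79% of all genes. The neutrophil marker mean was 3.87 to 4.08 in Per2-/- I30 and 5.05 to 5.81 in Per2-/- I30R60 hearts, and 4.20 to 5.55 and 4.69 to 5.95, with overlap, in wildtype hearts. Its part in these differences was not tested.

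Several of these genes are also high in fat cells, so adipocyte markers were read beside them. Of 11 markers measured, 7 lay below 4.44, the median of all values, on every array, among them the defining genes Adipoq, Plin1 and Lep. The mean of the 11 was 4.45 to 4.71 in wildtype sham and 4.49 to 4.69 in wildtype I30 hearts, and all group ranges lay between 4.37 and 4.71. Fabp4, which endothelium also expresses, was the brightest of them and fell in wildtype I30 by 0.43 on the log2 scale (adjusted p = 0.0165 in limma). Cidea, listed here as a marker too, fell by 0.49, as given above. The mean of all 11 markers did not fall with these genes, averaging 4.54 in wildtype sham and 4.58 in wildtype I30 hearts. Within groups, Pearson's r of the 10 genes with the marker mean over 24 arrays ranged from -0.30 to 0.12 (permutation p adjusted over 10 relations of 0.891 for all) and Spearman's rho from -0.17 to 0.29 (adjusted permutation p of 0.928 for all). Without the 2 arrays farthest from the median of the marker mean, r ranged from -0.21 to 0.17. With 7 of 11 markers at so low a level the mean is a weak measure of fat tissue, so these relations leave its part in the differences untested.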

How the data were processed

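Left ventricular RNA of 24 mice was hybridised to Affymetrix Mouse Gene 1.1 ST arrays per the study's methods. The deposited files hold log2 intensities for 35555 probe sets after RMA normalization by the authors (Partek Genomics Suite 6.6), with no detection calls. RMA sets arrays to a common distribution of probes, so that a difference shared by most genes would not be seen. Each of 18820 genes was read from its brightest probe set on average, among 21218 paired with a single symbol.

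Groups were taken from the sample labels, and replicates as separate mice. A mean per group was fitted with limma 3.58.1 in R 4.3.3 over all arrays (16 residual degrees of freedom), tested on simulated data, and 20 comparisons were each adjusted over all genes. The median standard error was 0.137 for 3 arrays against 3. Motif searches were run in Python 3.11.15 (numpy 2.4.6, scipy 1.17.1). Genes and lists were chosen with earlier results of these data known. Named were the 10 genes, Per2, up to 4 called genes per wider list and comparison, markers, and the genes most correlated with each of the 10 (up to 2). Plin3, Plin4 and Plin5 were named after their values were seen. Alternatives covered probe sets, scaling, filter, variances, arrays in the fit, block, test, covariate and each array left out.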

Additional observations from a re-analysis of the deposited data

How the results depend on the processing

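The precision rests on 3 arrays a group. The counts below are of the 10 genes called, and 157 of 191 counts in 20 comparisons stayed within 1.5 times the first count under 10 alternatives. Most of these comparisons had a first count of 0, and a 0 that stayed 0 is among the 157. The share therefore says little of how steady the calls were, which the counts below show. No called value changed sign. The count of 4 in wildtype I30 was 2 with arrays centred on their medians, 1 after quantile normalization, 2 with the adipocyte marker mean as a covariate, and 0 with only the arrays of the groups compared, with the methods' t-test, or without the 4 arrays with high Myl7. Under these last 3 settings 9, 0 and 3 of all genes were called, against 449. The count of 1 in wildtype IP0 was 3 with genes above the median only and with trend and robust variances, and 0 under the 3 settings that gave 0 for I30. The 1 between sham hearts was 0 under the same 3 and with the adipocyte covariate.

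For IP0 averaged over the genotypes the 2 became 1 with centring, with the covariate and with only the arrays compared, 3 with genes above the median only and with trend and robust variances, and 0 without the Myl7 arrays. For I30R60 averaged, the 1 became 2 with genes above the median only, 3 with trend and robust variances and 0 without the Myl7 arrays. For I30 averaged, the 0 became 2, 2 and 1 with genes above the median, with trend and robust variances and with the covariate. Counts of 0 became 1 with trend and robust variances for wildtype I30R60, Per2-/- I30R60 (also with genes above the median), the genotypes within I30, and wildtype I30R60 against I30. Between the genotypes over all conditions, 0 became 1 with genes above the median and 2 with trend and robust variances.

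Leaving out each array in turn gave 1 to 2 in wildtype I30, 0 to 1 in wildtype IP0 and in wildtype I30R60, 0 to 1 for I30 averaged, 1 to 2 for IP0 and for I30R60 averaged, 0 for the sham hearts of the genotypes, and 0 to 1 for the genotypes over all conditions and for I30R60 against I30 in wildtype hearts and averaged. Where a count of 0 became 1, it did so without wildtype I30R60 replicate 2 or 3, or, for I30 averaged, without Per2-/- sham replicate 3. The 2 for I30R60 averaged was found without wildtype I30R60 replicate 2. In all other comparisons the count stayed at 0 without each array.

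Whether arrays with the same replicate number share something was not settled. The mean correlation of deviations was 0.0203 for arrays with one number and -0.0101 for the rest. Of 28 pairs of groups 1 had all such correlations over 0.1. However, 19 of 24 arrays correlated best with one of their own number, and the labels do not say what the numbers stand for. With a replicate block the count in wildtype I30 was 3, with Mgll lost (adjusted p = 0.0584). It was 1 for I30 averaged, where there was none, and 1 for IP0 averaged, with Agpat2 lost (adjusted p = 0.0589), and it changed no other count. Counts in the wider list moved by over 1.5 times in 43 of 191 cases. At an unadjusted p under 0.05 the methods' t-test counted 6 of the 10 genes in wildtype I30, 6 in wildtype IP0 and 4 between sham hearts, beside 2760, 2226 and 1450 of all genes. After adjustment it called none of the 10, and 0, 1 and 0 of all genes. It was not run for averaged comparisons and interactions, and for the genotypes over all conditions all arrays are those compared. Centring moved the median of all genes by at most 0.0752 and quantile normalization by at most 0.016.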
